A study of Arabidopsis thaliana with 18 samples.

Results

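The copper economy of Arabidopsis thaliana was followed through 6 genes in 18 RNA-seq libraries of seedlings. They were FSD1 (AT4G25100), CSD1 (AT1G08830), CSD2 (AT2G28190), CCS (AT1G12520), CCH (AT3G56240) and YSL2 (AT5G24380), taken by locus name from a table of 11437 genes. For all 6 the 2 identifiers of the row named 1 gene, all 6 passed the filter on low counts, and none had counts that were not whole. The 6 were chosen by their levels in these libraries, which split the replicates within groups, so that split is described with no test.

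All seedlings were of ecotype Col-0, 14 days old, on 1/2MS medium, with days of 12 h light followed by 12 h of darkness. ZT, zeitgeber time, is the number of hours since dawn. The 3 untreated libraries came from ZT 0, before lights on. The 5 other groups, of 3 libraries each, came from ZT 2, after a transfer at ZT 0 to new 1/2MS medium. It held 0.1% DMSO, DPI at 10 µM, pentamidine isethionate (PI) at 25 µM, AEG3482 (AEG) at 12.5 µM or Tyrphostin AG879 (TYR) at 2 µM, which the study used as modifiers of sugar signalling. The group codes PI, AEG and TYR were matched to these names by their letters. The labels do not say whether replicates were separate plates or pools, so p-values measure only the spread between these libraries, and they record neither the copper content of the media nor a batch.

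Copper is a cofactor of plastocyanin, of cytochrome c oxidase and of the copper/zinc superoxide dismutases. When copper is scarce, Arabidopsis uses the transcription factor SPL7 to raise the iron superoxide dismutase FSD1 and the microRNA miR398, and miR398 lowers the transcripts of the copper/zinc dismutases CSD1 (cytosolic) and CSD2 (plastid) and of CCS, the chaperone that loads copper into them. CCH is a copper chaperone of the ATX1 family, and YSL2 is a transporter of the yellow stripe-like family, which carries metals bound to nicotianamine.

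The miR398 sequences are shown because 3 of the 6 genes are known targets of this microRNA. RefSeq TAIR10.1 places MIR398a at chr2:1040938-1041042, MIR398b at chr5:4691022-4691137 and MIR398c at chr5:4694694-4694808, each on the plus strand. The mature 3p sequences are given with the seed, bases 2 to 8, in capitals. The seed is shared by all 3 and the b and c forms are identical.

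ath-miR398a-3p: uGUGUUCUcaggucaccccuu
ath-miR398b-3p: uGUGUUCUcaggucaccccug
ath-miR398c-3p: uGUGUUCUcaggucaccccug

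The best ungapped match to miR398b was then searched in the longest annotated transcript of 27440 protein-coding genes, counting 1 for a mismatch and 0.5 for a G:U pair. Capitals mark the bases that form Watson-Crick pairs with the microRNA.

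CSD1: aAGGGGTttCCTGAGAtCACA
CCS: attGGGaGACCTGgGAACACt
CSD2: tgcGGGTGACCTGgGAAacat
COX5B-1: aAGGtGTGACCTGAGAAtcac

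The CSD1 match scored 4.0, a score reached by 9 genes with CSD1 among them, and lay in the 5′ UTR across the junction of exons 1 and 2 (chr1:2827177-2827685, plus strand, intron included). That of CCS scored 5.5 in the coding sequence of exon 5 (chr1:4267521-4267541, minus strand), a score reached by 1.42% of genes. The CSD2 match scored 6.5 in the coding sequence of exon 4 (chr2:12015572-12015592, plus strand), which 11.5% of genes reach, so the ungapped letters alone do not single it out. COX5B-1 (AT3G15640), which encodes a subunit of cytochrome c oxidase and is a further known miR398 target, scored 5.5 in its 5′ UTR (chr3:5299204-5299224, plus strand). The best matches in FSD1, YSL2 and CCH scored 6.5, 7.0 and 9.0, scores that 11.5%, 26.7% and 97.2% of genes reach.

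The 300 bases before the annotated starts of FSD1 and YSL2 are shown because these transcripts moved together and because SPL7 binds elements with the core GTAC, a motif that reads the same on both strands. The core is in capitals.

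FSD1: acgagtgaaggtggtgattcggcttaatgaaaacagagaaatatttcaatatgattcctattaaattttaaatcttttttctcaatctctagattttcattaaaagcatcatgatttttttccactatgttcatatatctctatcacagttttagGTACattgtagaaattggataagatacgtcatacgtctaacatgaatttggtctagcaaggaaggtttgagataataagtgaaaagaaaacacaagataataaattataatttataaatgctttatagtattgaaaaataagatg
YSL2: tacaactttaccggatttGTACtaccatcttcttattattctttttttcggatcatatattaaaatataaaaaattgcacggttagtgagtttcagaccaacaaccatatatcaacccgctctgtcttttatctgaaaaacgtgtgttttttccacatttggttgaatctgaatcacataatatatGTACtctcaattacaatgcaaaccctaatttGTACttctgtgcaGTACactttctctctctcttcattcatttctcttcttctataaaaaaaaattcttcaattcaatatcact

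YSL2 (chr5:8323595-8323894, plus strand) held 4 GTAC cores, found in 0.452% of 27444 windows of this length. FSD1 (chr4:12887012-12887311, minus strand) and CCH (chr3:20864728-20865027, minus strand) held 1 each, as did 39.7% of windows with at least 1. CSD1 held 2, as did 10.2% of windows with at least 2, CCS held 1 in a window that runs into the neighbouring gene AT1G12530, and CSD2 held none. A match of letters is not a binding site.

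Levels within a gene are given as CPM, counts scaled with TMM factors to the library's total over the genes that passed the filter. FSD1 encodes the iron superoxide dismutase of the plastid and cytosol. It stood at 1694, 1749 and 1735 CPM in untreated replicates 1, 2 and 3. With DMSO it was at 1242, 0.956 and 1.2 CPM in replicates 1, 2 and 3, and with DPI at 1076, 1.2 and 0 CPM. The remaining ZT 2 groups had the same make-up of 1 high and 2 low libraries, although in TYR the high library carried another replicate number. With PI the values were 1675, 0.316 and 1.91 CPM, with AEG 1507, 3.34 and 0.317 CPM, and with TYR 4.46, 0.937 and 961 CPM in replicate order. In counts, the 10 low libraries held between 0 and 15 FSD1 reads and the 8 high libraries between 3041 and 5857. The 0 counts of DPI replicate 3 allow up to 0.962 CPM by counting error alone.

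No library lay between these ranges. On the log2 CPM scale the widest gap between neighbouring libraries was 7.56, and the next widest was 0.731. The high libraries were the 3 untreated ones, replicate 1 of DMSO, DPI, PI and AEG, and replicate 3 of TYR. In whole seedlings, fewer cells of a type that expresses a gene and less RNA per cell cannot be told apart.

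CSD2, the plastid copper/zinc dismutase, took the opposite order. Untreated libraries had 334, 317 and 281 CPM. DMSO libraries had 387, 1696 and 1808 CPM, and DPI libraries 288, 1720 and 1742 CPM. The low library of each group was thus the one in which FSD1 was high. CSD2 was at 416, 1721 and 1800 CPM with PI, at 397, 2125 and 1813 CPM with AEG, and at 1858, 2007 and 727 CPM with TYR. TYR replicate 3 was the highest in CSD2 of the 8 libraries with high FSD1 and the lowest in FSD1 of those 8.

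CSD1, the cytosolic enzyme, followed CSD2. It was at 242, 243 and 189 CPM in untreated libraries, and at 216, 816 and 804 CPM with DMSO. DPI replicate 1 had the lowest value of all 18 libraries, 143 CPM, against 852 and 796 CPM in its replicates 2 and 3. The values were 301, 869 and 794 CPM with PI, 298, 904 and 827 CPM with AEG, and 749, 770 and 390 CPM with TYR. As for CSD2, no library of the low-FSD1 range overlapped the high-FSD1 range, with CSD1 between 749 and 904 CPM in the former and between 143 and 390 CPM in the latter.

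CCS, the copper chaperone of both enzymes, split the same libraries, and its values within the high-FSD1 range were spread on both sides of the untreated ones. Untreated libraries had 147, 161 and 123 CPM, and DMSO libraries 90.1, 359 and 380 CPM. With DPI, PI and AEG, replicate 1 was at 66.5, 88.3 and 80.1 CPM, below each untreated library, whereas replicates 2 and 3 of these groups lay between 335 and 405 CPM. TYR had 360, 425 and 169 CPM in replicate order, so that its replicate 3 lay above each untreated library. Per length and in each library, the ratio of CSD2 to CCS TPM was 2.39 to 2.79 in the untreated libraries and 5.22 to 7.21 in all 15 ZT 2 libraries. ZT 2 libraries of both FSD1 ranges thus lay above the 3 untreated ones. All untreated libraries had high FSD1, so the times cannot be compared within the low range. The ratio was chosen after the values were seen and has no test. How many other ratios lack overlap between the times was not counted.

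YSL2 was high and low in the same libraries as FSD1. Untreated libraries were at 62.9, 68.9 and 68.1 CPM, and DMSO libraries at 76.1, 8.29 and 2.71 CPM. DPI replicate 1 had the highest value of all, 160 CPM, against 5.41 and 6.41 CPM in replicates 2 and 3. With PI the values were 125, 3.8 and 1.91 CPM, with AEG 152, 5.01 and 4.75 CPM, and with TYR 7.44, 3.43 and 93.8 CPM. Unlike FSD1, which was highest in the untreated libraries, YSL2 in each high ZT 2 library exceeded all 3 untreated values.

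CCH also followed FSD1 but with intermediate values. It was at 365, 328 and 341 CPM in untreated libraries, and at 200, 78.1 and 57.2 CPM with DMSO. PI replicate 1 was at 326 CPM, just under the lowest untreated library, and replicates 2 and 3 were at 69.9 and 65.5 CPM. AEG had 187, 78.2 and 67.1 CPM, and TYR had 53.9, 64.3 and 219 CPM. DPI differed from the other groups: replicate 1, with FSD1 at 1076 CPM, had only 88.0 CPM of CCH, close to the 67.9 and 76.3 CPM of replicates 2 and 3.

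**Figure D1:**
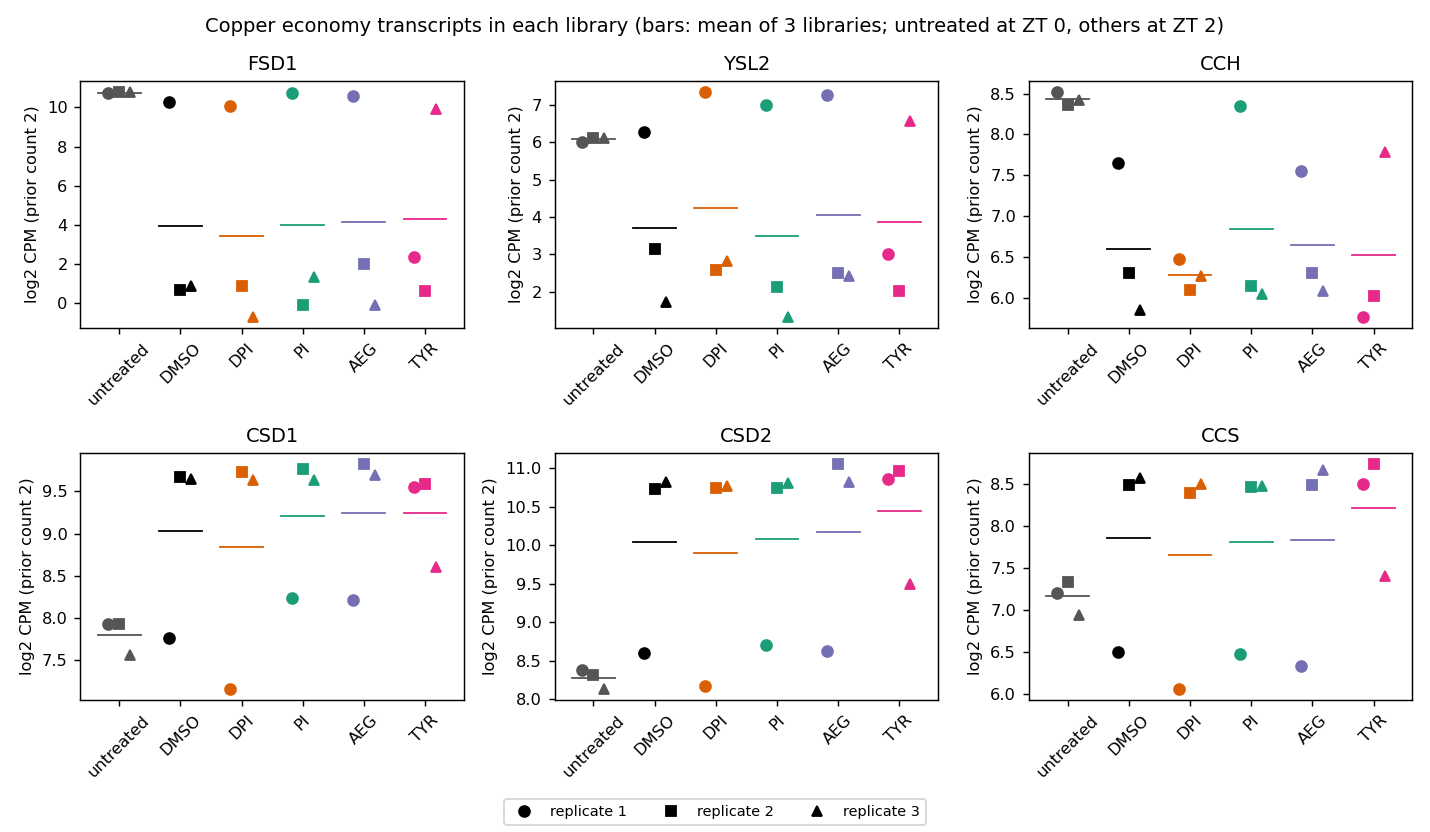
Each panel plots log2 CPM (y axis, prior count 2) of 1 gene in each of 18 libraries, by group on the x axis, with the replicate number as the symbol and the mean of 3 libraries as a bar. In every ZT 2 group, 1 library sits with the untreated ones for FSD1, replicate 1 in DMSO, DPI, PI and AEG and replicate 3 in TYR, and the same library is the lowest of its group for CSD1, CSD2 and CCS.

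To compare the 3 dismutases with each other, TPM was used, which accounts for transcript length. FSD1 made up 69.8%, 71.1% and 74.5% of their summed TPM in the untreated libraries. In DMSO replicate 1 its share was 62.2%, in DPI, PI and AEG replicate 1 it was 66.8%, 64.8% and 63.1%, and in TYR replicate 3 it was 40.9%. In the 10 other libraries the FSD1 share lay between 0 and 0.139%, and CSD2 held 61.3% to 67.6%. The summed TPM of the 3 genes was 1557, 1655 and 1595 in untreated libraries and 1137 to 1541 in the 5 ZT 2 libraries with high FSD1. In the remaining 10 it was 1969 to 2232, so the sum was higher where the copper/zinc enzymes made up nearly all of it.

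**Figure D2:**
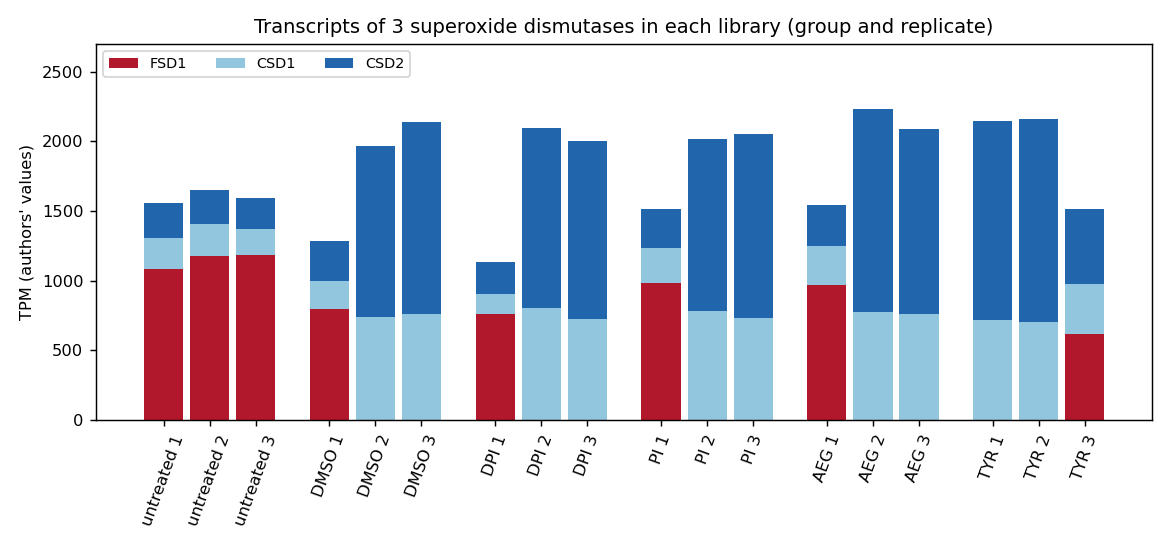
Stacked bars give the authors' TPM values (y axis, from 0) of FSD1, CSD1 and CSD2 in each library, named by group and replicate on the x axis. FSD1 takes 40.9% to 74.5% of the bar in 8 libraries and at most 0.139% in the other 10, where CSD1 and CSD2 fill it.

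The spread within groups was among the largest of the 9006 genes that passed the filter. The SD of log2 CPM about the group means was 5.08 for FSD1, the largest of all, and 2.42 for YSL2, the fifth largest. It was 1.13 for CSD2, 1.07 for CCS, 0.930 for CSD1 and 0.861 for CCH, above 99.5%, 99.3%, 98.7% and 98.3% of genes. These values chose the genes and are a description. Likeness to FSD1 was measured as the Pearson correlation of log2 CPM after each group mean was removed, over 18 libraries. It was -0.98 for CCS and CSD2, -0.95 for CSD1, 0.97 for YSL2 and 0.88 for CCH, and 0.99 between CSD2 and CCS. Since the libraries fall into separate ranges, these values mainly restate the split.

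Within each range of FSD1 the likeness was weaker and changed sign between ranges for some genes. Over the 8 high libraries, which mix both times, Pearson's r with FSD1 was 0.74 for CCH (Spearman 0.74), -0.56 for CSD2 (Spearman -0.50), -0.39 for YSL2 (Spearman -0.64), 0.16 for CCS (Spearman 0.24) and -0.05 for CSD1 (Spearman -0.14). Over the 10 low libraries, where FSD1 had at most 15 counts, r was 0.52 for CSD2 (Spearman 0.41), -0.40 for CCH (Spearman -0.32), -0.22 for CCS (Spearman -0.16), -0.09 for CSD1 (Spearman -0.18) and -0.0013 for YSL2 (Spearman -0.02).

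Dawn was examined by setting the DMSO group against the untreated group. Time, light, transfer, fresh medium and solvent all differ between them and cannot be told apart. CSD2 was higher and CCH lower with DMSO. CSD2 went from 311 ± 26.9 to 1297 ± 790 CPM (SD, n = 3). Its log2 fold change was 2.06 (SE 0.68; edgeR quasi-likelihood test, Benjamini-Hochberg adjusted p = 0.0235). CCH went from 345 ± 19.1 to 112 ± 77.0 CPM (SD, n = 3). Its log2 fold change was -1.63 (SE 0.58; edgeR, adjusted p = 0.0348). DESeq2 did not call CCH (adjusted p = 0.0537). For both genes the 3 and 3 libraries did not overlap, but this also held for genes that were not called, such as FSD1, YSL1 and HMA5. The share of all genes without overlap was not counted, so the lack of overlap adds nothing to the calls. Thus 2 of 6 genes were called, where 35.6% of the 9006 genes tested were called, 19.6% higher and 16% lower, a share near that of all genes.

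The other 4 genes were not called at dawn. CSD1 was at 225 ± 31.1 and 612 ± 343 CPM (SD, n = 3), with a log2 fold change of 1.45 (standard error 0.56 by edgeR, adjusted p = 0.0504). CSD1 lay at the threshold. It was called with a filter of 10 counts in every library, with one of 1 count in any library and with only the 2 groups in the model (edgeR, adjusted p = 0.0458, 0.0317 and 0.0108). It was not called without TMM or with a replicate block (edgeR, adjusted p = 0.0558 and 0.0540), nor with DESeq2 (adjusted p = 0.0776). FSD1 was at 1726 ± 28.9 CPM in untreated and 415 ± 716 CPM in DMSO libraries (SD, n = 3). Its ranges did not overlap, and its log2 fold change was -2.06 (SE 2.44; edgeR, adjusted p = 0.548). The ranges of CCS and YSL2 overlapped, with differences of 0.94 (SE 0.63; edgeR, adjusted p = 0.260) and -1.20 (SE 1.42; edgeR, adjusted p = 0.546) on the log2 scale. The calls depended on replicate 1, which in the DMSO group was the library with high FSD1. Without replicate 1 of every group, all 6 were called, with log2 fold changes of -10.59 for FSD1, 2.56 for CSD2, 1.92 for CSD1, 1.39 for CCS, -2.30 for CCH and -3.64 for YSL2. The genes were chosen for the split that this library makes, so these values restate the split and are no test of it. Without replicate 2 or without replicate 3, 0 of the 6 were called, with an adjusted p for CSD2 of 0.184 and 0.181 (edgeR). DMSO replicate 1 then made up 1 of 2 DMSO libraries. The calls over all genes moved too. They numbered 3204 with all libraries and 1709 to 2583 when each replicate number was left out in turn, with 1709 without replicate 2.

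DMSO replicate 1 alone, in which FSD1 stayed high, can be set beside the untreated range. Its FSD1 of 1242 CPM lay below the untreated minimum of 1694 CPM, its CSD2 of 387 CPM above the maximum of 334 CPM, and its CSD1 of 216 CPM inside the range. CCS at 90.1 CPM and CCH at 200 CPM were below the untreated range, and YSL2 at 76.1 CPM above it. A single library has no replicate check.

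Against the same untreated libraries, the fold changes of each gene had 1 sign with all 4 chemicals, except that YSL2 turned positive with DPI (0.356 and 0.317) and with AEG (0.250 and 0.235) when replicate 2 or replicate 3 was left out. CSD2 was called higher with each of DPI, PI, AEG and TYR, with log2 fold changes of 2.01, 2.08, 2.22 and 2.30 (edgeR, adjusted p = 0.0243, 0.0211, 0.0144 and 0.0125). CSD1 was called with PI, AEG and TYR (1.54, 1.59 and 1.5; edgeR, adjusted p = 0.0359, 0.0299 and 0.0412) and not with DPI (1.41; edgeR, adjusted p = 0.0512). CCH was called lower with DPI, AEG and TYR (-2.15, -1.64 and -1.62; edgeR, adjusted p = 0.00698, 0.0306 and 0.0342) and not with PI (-1.16; edgeR, adjusted p = 0.116). FSD1, CCS and YSL2 were not called with any chemical. Without replicate 2, 0 of the 6 were called with any chemical, and the adjusted p of CSD2 by edgeR lay between 0.128 and 0.188. In that setting 2324, 2173, 2299 and 1985 of all genes were called with DPI, PI, AEG and TYR. Without replicate 3, edgeR called 0 of the 6 with PI and AEG, 1 with DPI and 2 with TYR. Leaving out each replicate number in turn gave 2324 to 2857 calls over all genes with DPI and 2173 to 2561 with PI. With AEG it gave 2299 to 2806 and with TYR 1985 to 2775. Of the 6, DESeq2 on all libraries called 1 with PI and 1 with TYR. Over all alternatives, DESeq2 among them, calls over all genes numbered 2173 to 3917 with PI and 1985 to 3612 with TYR. With all libraries in edgeR, 2 of the 6 were called with DPI, against 40.1% of all genes, and 2 with PI, against 38%. AEG and TYR each gave 3 of 6, against 40% and 37.4%. Of all genes, 21.7% were higher and 18.4% lower with DPI, 20.2% and 17.8% with PI, 21.2% and 18.8% with AEG, and 20.1% and 17.3% with TYR. These contrasts share the untreated libraries, and each ZT 2 group again held 1 library with high FSD1.

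Each chemical was then set against DMSO, and the 4 contrasts share the DMSO libraries. For every chemical, edgeR called 0 of the 6 genes and 0% of all genes tested, as did DESeq2. Before adjustment, p fell under 0.05 for 351 genes in TYR, 302 in AEG, 223 in PI and 323 in DPI, and none of the 6 was among them, since their smallest unadjusted p was 0.381, for CCH with DPI (edgeR). FSD1 differed by -0.37 in TYR, 0.28 in AEG, 0.43 in PI and -0.21 in DPI on the log2 scale, each with an SE of 2.36 or 2.37. Differences of CSD1, CSD2 and CCS lay between -0.12 and 0.24, with SEs of 0.55 to 0.65. The 2 largest differences were in YSL2 with DPI, 0.99 (SE 1.43; edgeR, adjusted p = 0.990), and with AEG, 0.90 (SE 1.43; edgeR, adjusted p = 1.00). CCH with DPI was at 77.4 ± 10.11 CPM against 112 ± 77.0 CPM with DMSO (SD, n = 3), which on the log2 scale is -0.53 (SE 0.59; edgeR, adjusted p = 0.990). These SEs allow changes of several-fold in FSD1 and YSL2, so a p that missed the threshold does not show that the chemicals left these genes as they were.

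**Figure D3:**
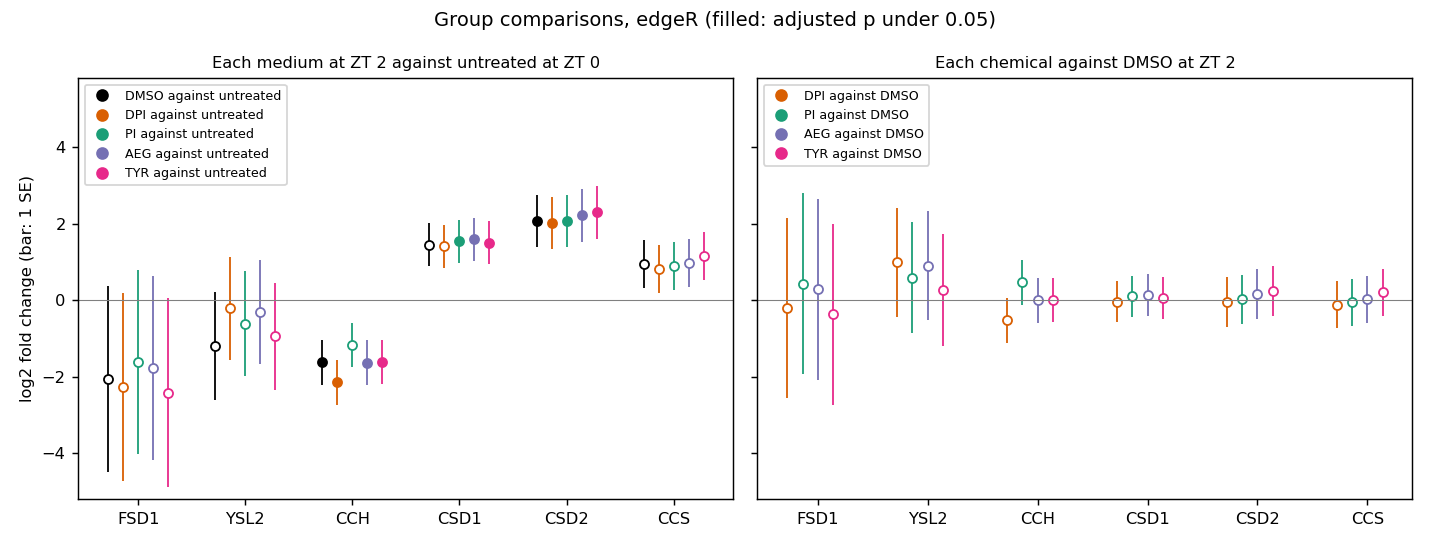
Log2 fold changes (y axis) of the 6 genes (x axis) are plotted with 1 SE for each ZT 2 medium against untreated libraries, left, and for each chemical against DMSO, right. Filled points passed an adjusted p of 0.05, which held for CSD2 in 5, CCH in 4 and CSD1 in 3 of the 5 comparisons on the left and for no point on the right.

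In order of group means, FSD1 ran from untreated (1726 CPM) through PI (559), AEG (504), DMSO (415) and DPI (359) to TYR (322 ± 553 CPM, SD, n = 3). For CSD2 the order was untreated (311 CPM), DPI (1250), DMSO (1297), PI (1312), AEG (1445) and TYR (1530 ± 700 CPM, SD, n = 3). In both orders the 5 ZT 2 groups did not differ beyond their spread.

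Other genes of copper handling were taken from a list of 42, of which 20 were in the table and 19 passed the filter. At dawn 2 of the 19 rose and 4 fell, where 19.6% of all genes tested rose and 16% fell, so the list's share was near that of all genes. Its median log2 fold change was -0.21, against 0.015 over all genes. COPT1, COPT6, RAN1 and PAA2 fell, while the other transporters COPT5 (-0.21), HMA1 (-0.08), YSL1 (-0.59) and HMA5 (0.64) were not called (edgeR, adjusted p = 0.310, 0.648, 0.0807 and 0.175). COPT1 (AT5G59030), a plasma membrane copper importer, was at 194 ± 23.0 CPM before and 100 ± 9.97 CPM after dawn (SD, n = 3), or -0.96 in log2 units (SE 0.15; edgeR, adjusted p = 3.49e-05), and its relative COPT6 (AT2G26975) at 157 ± 11.4 and 84.4 ± 17.0 CPM, or -0.90 (SE 0.17; edgeR, adjusted p = 0.000274). RAN1 (AT5G44790), the ATPase that supplies copper to ethylene receptors, had a log2 fold change of -0.98 (standard error 0.15 by edgeR, adjusted p = 3.46e-05). PAA2 (AT5G21930), the copper ATPase of the thylakoid, had one of -0.71 (SE 0.17; edgeR, adjusted p = 0.00262), which did not pass without replicate 2 (edgeR, adjusted p = 0.0823).

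The 2 that rose were COX17-1 (AT3G15352), a copper chaperone of mitochondria, from 6.37 ± 1.51 to 18.7 ± 6.20 CPM (SD, n = 3; log2 fold change 1.55, SE 0.35; edgeR, adjusted p = 0.00159), and ARPN (AT2G02850), the blue copper protein plantacyanin (1.09, SE 0.40; edgeR, adjusted p = 0.0396). The call of COX17-1 was lost without replicate 3 (edgeR, adjusted p = 0.0748). That of ARPN was lost in 4 of the 9 alternatives, with an adjusted p of 0.0133 to 0.280 over all of them (edgeR or DESeq2). SPL7 (AT5G18830) itself was at 72.9 ± 8.0 CPM in untreated and 66.4 ± 8.93 CPM in DMSO libraries (SD, n = 3; edgeR, adjusted p = 0.499). FRO4, a metal reductase, did not pass the filter, nor did MSD2 among the other dismutases, where FSD3 (AT5G23310) was tested and not called (edgeR, adjusted p = 0.436). With the chemicals against DMSO, 0 of the 19 were called.

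For the 19 other copper genes the median likeness to FSD1 was -0.03, against -0.01 over all 9005 other genes, and it ranged from -0.68 to 0.60, so none reached 0.8 in either direction. The lowest were COX5B-1, a target of miR398, at -0.68, ARPN, a target of miR408, at -0.66, and the copper ATPase HMA5 at -0.62. Known targets of copper microRNAs lay on both sides, since LAC13, a laccase targeted by miR408, was at 0.58, and LAC4 and LAC17, laccases targeted by miR397, were at 0.05 and 0.06. SPL7 was at 0.03. Of the iron list, 7 of 18 genes were tested and 2 rose at dawn, a share near the 19.6% of all genes that rose. These were PYE (AT3G47640), a regulator of iron homeostasis (log2 fold change 1.39, SE 0.35; edgeR, adjusted p = 0.00434), and OPT3 (AT4G16370), an iron transporter of the phloem (0.86, SE 0.27; edgeR, adjusted p = 0.0178). Neither passed without replicate 2 (edgeR, adjusted p = 0.0538 and 0.176). OPT3 had a likeness to FSD1 of -0.74, and IRT1, the iron importer of roots, one of -0.0026.

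Among all genes tested, likeness to FSD1 of at least 0.8 was found for 14 (0.155%) and of at most -0.8 for 11 (0.122%), and 3 genes lay beyond 0.9 on each side (0.0333% each). Below -0.9 these were CCS, CSD2 and CSD1. Above 0.9 they were AT5G14550 (0.99), YSL2 (0.97) and AT2G47010 (0.95). Both unnamed loci lie at genes of copper microRNAs. AT5G14550 (chr5:4691006-4694055, minus strand) runs antisense over all 116 bases of the MIR398b precursor. AT2G47010 (chr2:19317126-19319397, plus strand) ends 417 bases before MIR408 (chr2:19319814-19320031, plus strand).

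AT5G14550 was at 35.2, 40.2 and 32.0 CPM in untreated libraries, at 16.6, 4.14 and 5.41 CPM with DMSO and at 17.6, 6.31 and 4.49 CPM with DPI. It was at 23.3, 6.01 and 6.05 CPM with PI, at 20.5, 7.35 and 4.75 CPM with AEG and at 5.66, 3.75 and 12.6 CPM with TYR. Its 8 highest libraries were the 8 with high FSD1, and untreated libraries exceeded the ZT 2 ones among them. AT2G47010 was at 35.8, 25.1 and 23.4 CPM in untreated libraries and at 24.7, 7.33 and 6.92 CPM with DMSO, and TYR had 7.44, 11.9 and 20.5 CPM. Strand-specific counting is not stated, so reads of AT5G14550 and of a MIR398b transcript on the opposite strand cannot be told apart, and reads past the end of AT2G47010 were not examined here.

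**Figure D4:**
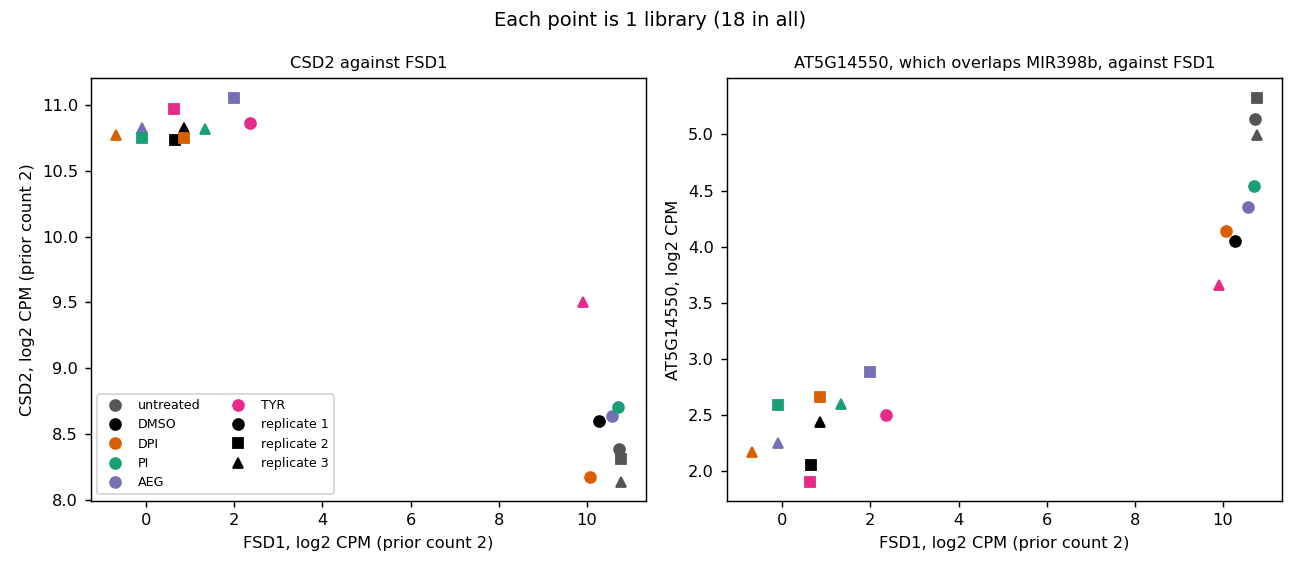
Each point is 1 of 18 libraries, with FSD1 log2 CPM on the x axis and, on the y axis, log2 CPM of CSD2, left, or of AT5G14550, right. The 8 libraries at the right of each panel have low CSD2 and high AT5G14550, with TYR replicate 3 between the rest in CSD2 at 727 CPM, and no library has FSD1 between 4.46 and 961 CPM.

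Values for the other neighbours in the table were lower. The further neighbour of MIR398b, AT5G14540, had a likeness of 0.18. AT4G05110 (ENT6), which overlaps MIR397A on the opposite strand, had a likeness of 0.69, and AT5G14570 (NRT2.7), 276 bases from MIR398c, one of 0.64. The genes on each side of MIR398a, AT2G03450 and AT2G03440, were at -0.21 and -0.39. The nearest genes to MIR397B and MIR857, AT4G13560 and AT4G13550, were not in the table and have no values. AT2G47020, which overlaps all 218 bases of MIR408 on the opposite strand, was not in the table either.

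The rule for like genes also named EMB3108 (0.86), GRIK2 (0.85), AT1G11940 (0.85) and AGP20 (0.82) at the high end. At the low end, besides the 3 members, it named ASPGA1 (-0.87), SDH1-2 (-0.86), AT3G54630 (-0.83), AT1G71480 (-0.82) and CDC27a (-0.81), of which AT1G71480 had counts that were not whole and is uncertain. SDH1-2 (AT2G18450), an isoform of the flavoprotein subunit of succinate dehydrogenase, had the widest spread of these. It was at 3.39, 2.12 and 2.37 CPM in untreated libraries, at 2.82, 20.7 and 27.4 CPM with DMSO and at 0.657, 32.3 and 63.0 CPM with PI. In TYR, SDH1-2 departed from the pattern, with 11.6, 24.0 and 19.9 CPM in replicate order. Group means were removed, so likeness does not compare ZT 0 with ZT 2. ASPGA1 was at 92.5, 87.9 and 84.7 CPM in untreated libraries, where FSD1 was high, and at 37.6, 56.1 and 53.2 CPM with DMSO. AT1G71480, GRIK2 and EMB3108 varied little, with an SD of log2 CPM about the group means of 0.111, 0.198 and 0.214.

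**Figure D5:**
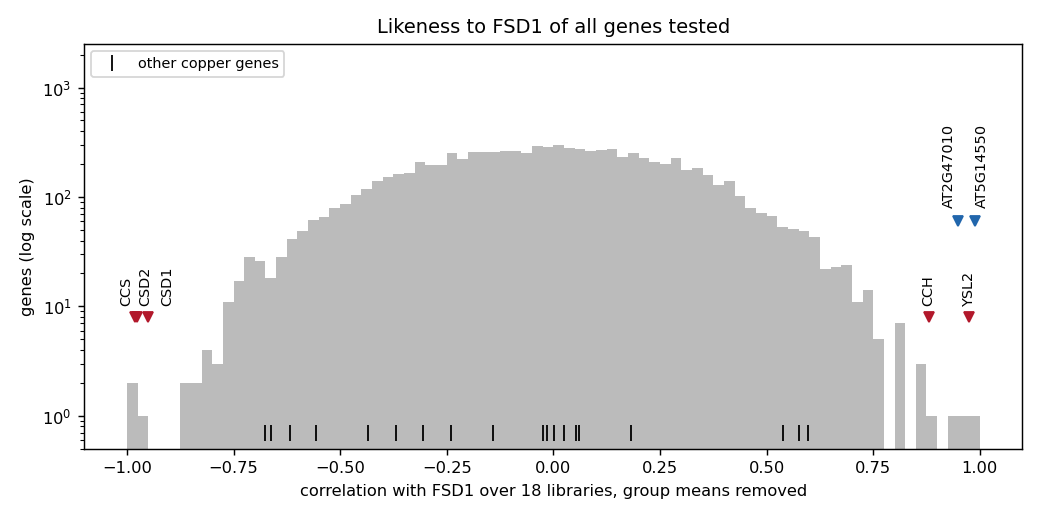
The histogram counts genes (y axis, log scale) by correlation with FSD1 over 18 libraries after group means were removed (x axis). Red marks are the 5 other copper economy genes, blue marks AT5G14550 and AT2G47010, and ticks the 19 other copper genes, which lie between -0.68 and 0.60.

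Summed over the 11437 genes with an identifier, counts lay between 3156987 and 3249696 per library. The 10 genes with the most counts took 7.91% to 10.4% of these sums. These genes held 48.4% to 49.0% of the TPM of a library, so the sums are not whole library depths. Of 8 green tissue markers 4 were in the table, and these passed the filter. Their summed TPM was 8307 to 12550, with a likeness to FSD1 of 0.18. Of 9 root markers 3 were in the table and 1 passed the filter, with a summed TPM of 1.14 to 3.16 and a likeness of -0.36. EXPA7, a root hair marker that did not pass the filter, held 1, 9 and 1 counts in untreated libraries and 0 in all 3 DMSO libraries. RHD2, the root marker that passed, was at 4.56 CPM in untreated and 6.83 CPM in DMSO libraries (edgeR, adjusted p = 0.234). The part of tissue make-up in the split was not tested. Intervals and floors cover counting error only.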

How the data were processed

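RNA-seq was analysed in 18 libraries of Arabidopsis seedlings. The authors deposited FPKM, TPM and estimated counts per gene and library, with group means, per the file headers. The submitters' processing notes name HISAT2 2.2.1, RSEM 1.2.22 and build TAIR10, with no role or order. FPKM values and group means were not used.

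Of 29431 lines, 11981 named a gene, with 11437 distinct identifiers. Lines that named no gene were left out, so all genes here means genes among these 11437. The reference holds 27562 protein-coding genes. Repeated lines held equal values. All identifiers matched RefSeq TAIR10.1, the source of names, coordinates and sequences. Deposited estimated counts, 3.59% of them not whole, were rounded and tested with the edgeR 4.0.16 quasi-likelihood test in R 4.3.3, with TMM factors of 0.942 to 1.07 and the filterByExpr filter, in 1 model of 6 groups (residual degrees of freedom 12). Adjustment was by Benjamini-Hochberg over 9006 genes and called under 0.05. Log2 CPM used a prior count of 2. A floor of 3 counts equals 0.889 to 1.00 CPM. The model was tested on simulated data. The simulated counts held no split of libraries within a group, so that test does not cover the pattern of the 6 genes. Library pairs of a group differed by at least 3.08 times Poisson variance.

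The genes and the copper, iron, green and root lists were chosen with earlier results of these data known. The text names the 6 genes, up to 6 genes per copper and iron list called at dawn with the largest change, and, at an average log2 CPM of at least 3, the 8 genes most and the 8 least like FSD1. The per-library ratio of CSD2 to CCS and the microRNA neighbours were chosen after values were seen. Alternatives were DESeq2 1.42.0, no TMM, 2 other filters, only the compared groups, a replicate block and leaving out each replicate number.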

Additional observations from a re-analysis of the deposited data

How the results depend on the processing

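The genes called against untreated libraries and the calls of the 6 genes depended most on which libraries entered. When each replicate number was left out in turn, the 6 genes gave 0 to 6 calls with DMSO, DPI, PI and AEG and 0 to 4 with TYR against untreated libraries. All genes called ranged from 1985 to 2775 in TYR, 2299 to 2806 in AEG, 2173 to 2561 in PI, 2324 to 2857 in DPI and 1709 to 2583 in DMSO. DESeq2 called 1 of the 6 with each of DMSO, PI and TYR. FSD1 and YSL2 had no adjusted p in DESeq2 at dawn, which is not counted as a lost call. The cause was not tested, except that leaving out replicate 1 removes the library with high FSD1 from every ZT 2 group but TYR.

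Over all genes tested, deviations of same-numbered libraries from their group means correlated by -0.31 to 0.13 in the comparisons with DMSO or untreated libraries. Chemicals were not correlated with each other, so a plate or batch shared by replicate number was not tested. For FSD1, the high library was replicate 1 in DMSO, DPI, PI and AEG. For TYR and DMSO all 3 correlations were negative (-0.16, -0.22 and -0.31). With the replicate block 3 of the 6 were called at dawn, FSD1 among them (log2 fold change -8.23; edgeR, adjusted p = 0.0144, range over its alternatives 0.00144 to 0.745), and 3102 of all genes. Against untreated libraries the block gave 4 of the 6 for PI and for AEG, and 3 for TYR and for DPI. All genes called there numbered 3349 for PI, 3524 for AEG, 3306 for TYR and 3513 for DPI. For each chemical against DMSO the block gave 0 genes called.

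Differences between chemicals and DMSO changed sign, none of them called. Without TMM, CSD2 with PI was -0.0356 and CCS with AEG was -0.035. With the block, CCH with AEG was 0.0103 and FSD1 with TYR was 5.33. Omitting a replicate number gave -0.124 to 0.0216 for CSD1 and -0.83 to 0.0903 for CCH with DPI, and -0.92 to 0.68 for YSL2 with PI. With AEG it gave -0.0664 to 0.11 for CCH, -0.16 to 0.99 for YSL2 and -0.035 to 0.0493 for CCS. With TYR, whose high-FSD1 library carries number 3, it gave -7.81 to 8.75 for FSD1, -0.48 to 0.55 for CSD1, -0.36 to 0.88 for CSD2, -0.31 to 0.80 for CCS, -1.24 to 1.07 for CCH and -2.94 to 3.15 for YSL2. YSL2 against untreated libraries ranged from -3.52 to 0.36 with DPI and from -3.79 to 0.25 with AEG. Likeness to FSD1 kept its sign for the 5 other genes in the 6 alternatives run. Of the 16 genes named as most or least like FSD1, 9 were named again with Spearman's measure and 3, 6 and 7 without replicates 1, 2 and 3. A filter of at least 10 counts in every library gave no value for FSD1 and YSL2, which it removes. The 0 to 15 counts of FSD1 in 10 libraries limit its fold changes.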
